A study of Mus musculus with 6 samples.

Results

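The 72 genes described here encode parts of the motile cilium's axoneme or factors that build it. They were taken by symbol from the 50559 genes listed for 6 single-cell libraries of mouse uterine tube: every Dnah, Dnaic, Dnaaf, Rsph, Drc, Tekt or Cfap symbol with a number, which gave 15 dynein heavy chains, 2 dynein intermediate chains, 7 dynein assembly factors, 7 radial spoke genes, 3 genes of the nexin-dynein regulatory complex, 5 tektins and 33 Cfap genes. The rule itself uses symbols and no measured value, but it was chosen with earlier results of these data known. All libraries came from adult estrous females of the strain C57BL6, and the labels name no allele, agent or age: distal 1, 2 and 3 hold the distal section of the tube, and proximal 2, 3 and 4 the proximal section. Each library pooled tissue of a group of mice, so p-values measure only the spread between these pools. Levels are unique molecular identifiers (UMIs, each counting 1 captured RNA molecule) of a gene per 1000000 UMIs (CPM) of the cells named, in that library. Reads came from the 3' ends of transcripts, so levels are compared between cells and not between genes.

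The axoneme is a ring of doublet microtubules around a central pair. Outer and inner dynein arms on the doublets drive the beat, radial spokes and the nexin-dynein regulatory complex control the arms, and tektins and other inner proteins line the doublets. In the uterine tube, multiciliated cells carry such cilia and move the oocyte and tubal fluid, and they lie among secretory cells of the same epithelium. Wfdc12, by which the ciliated cells were split, encodes a small WAP-domain protein of the protease inhibitor type.

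After filtering, 18466 cells remained, 2268 of them in 8 clusters classed as ciliated. The 72 genes had been left out of the clustering, as had Wfdc12. The ciliated class held 632, 427 and 1146 cells in distal 1, 2 and 3 and 23, 7 and 33 cells in proximal 2, 3 and 4. All 16 ciliated markers of the list used for naming, such as the transcription factor Foxj1, were detected (a UMI in at least 20% of cells) in 4 of the 8 clusters, and at least 12 in each of the others. The summed marker level was 10456 to 14001 CPM in the distal and 5877 to 11507 CPM in the proximal ciliated cells. The depth behind these values was 1867206 to 5628155 UMIs in the distal and 11557 to 108382 UMIs in the proximal ciliated cells. Of 18293 distinct barcodes, 172 occurred in more than 1 library.

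Motile cilia genes made up 19366, 15829 and 13486 CPM of the ciliated cells in distal 1, 2 and 3, and 7398, 11854 and 9061 CPM in proximal 2, 3 and 4. In other epithelium their sum was 566, 615 and 572 CPM in the distal and 368, 287 and 370 CPM in the proximal libraries. Fibroblasts held 357, 296 and 374 CPM in the distal and 298, 324 and 300 CPM in the proximal libraries. Every ciliated value lay above every value of both other classes, and within the ciliated class every distal value lay above every proximal one. The ciliated sums averaged 16227 ± 2960 CPM in the distal and 9437 ± 2252 CPM in the proximal libraries (SD, n = 3 each). When each cell was thinned to 1000 UMIs, the median distal ciliated cell held a UMI of 14, 14 and 12 different members, the median proximal ciliated cell of 5, 7 and 8.5, and the median other epithelial cell or fibroblast of 0. Without thinning the ciliated medians were 28, 26 and 24 members in the distal and 7, 12 and 18 in the proximal libraries. Thinning left out 126, 71 and 249 distal and 7, 2 and 7 proximal ciliated cells.

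**Figure D1:**
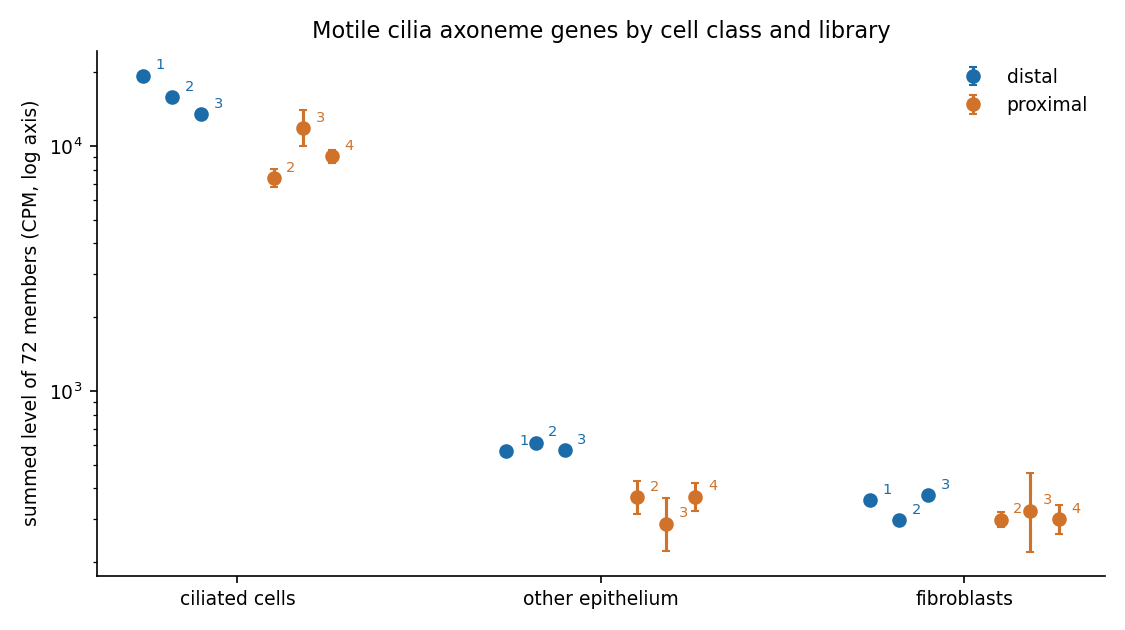
Summed level of the 72 members in CPM (log axis) in ciliated cells, other epithelium and fibroblasts. Each point is 1 library, numbered as in its title, with a 95% Poisson interval for counting error only. Ciliated cells span 7398 to 19366 CPM, and both other classes 287 to 615 CPM.

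The outer arm heavy chain Dnah5 was measured at 1090, 890 and 861 CPM in the distal and 159, 606 and 655 CPM in the proximal 2, 3 and 4 ciliated cells. Dnah12, an inner arm heavy chain, was at 1638, 1156 and 881 CPM in distal and 260, 952 and 434 CPM in proximal ciliated cells. Cfap126 (Flattop), a protein of the doublet lumen, was at 1098, 998 and 673 CPM in distal and 1658, 173 and 148 CPM in proximal ciliated cells. Proximal 2 was the lowest library for both dynein chains and the highest for Cfap126. Among the other abundant members, Cfap299 was at 1260, 1010 and 883 CPM in distal and 245, 1038 and 517 CPM in proximal ciliated cells, again lowest in proximal 2. The nexin-dynein gene Drc1 was at 214, 138 and 138 CPM in distal and 72.1, 259.6 and 138 CPM in proximal ciliated cells, and the groups overlapped. The proximal 3 values of all these genes rest on 7 cells and 11557 UMIs and are uncertain.

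A few members were absent or nearly so from ciliated cells. Dnaaf6 and Cfap97d1 had no UMI there, and Dnah17, Dnah8 and Rsph6a averaged 0.329, 2.93 and 0.0592 CPM in the distal ciliated cells. In mouse these last 3 genes are known from the sperm flagellum, where Dnah8 and Dnah17 are outer arm heavy chains. Dnah8 was at 2.02, 3.75 and 3.02 CPM in ciliated cells of distal 1, 2 and 3, against 10.0, 9.17 and 5.94 CPM in their fibroblasts, and at 23.4 CPM in T and NK cells over all libraries (95% Poisson interval 14.1 to 36.5).

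The fibroblast level of each gene, as a percent of its ciliated level in the same distal libraries, was used as a description of the level outside ciliated cells. It was above 100% in Dnah8 (297%), Dnah17 (288%) and Rsph6a (113%), which are among the 6 members under 5 CPM in distal ciliated cells and outside the tally that follows. These genes had 29, 3 and 1 UMIs in distal ciliated cells, so the percents of Dnah17 and Rsph6a are uncertain. Among the 66 members of at least 5 CPM, the median was 0.75%, and it was 0.59% over the 16 ciliated markers. In 37 members the fibroblast level was under 1% of the ciliated level, in 16 it was 1 to 5%, and in 13 it was 5% or more. The lowest nonzero values belonged to Cfap221 (0.0835%), Dnah6 (0.175%), Dnah9 (0.191%) and Cfap61 (0.196%). Cfap221 had only 3 UMIs in the fibroblasts of all libraries, so its percent and rank are uncertain. Cfap221 is a central apparatus protein, Dnah6 an inner arm and Dnah9 an outer arm heavy chain, and Cfap61 a radial spoke component. Dnaaf6b and Cfap73 had no UMI in distal fibroblasts. At the other end stood Cfap97 (61.5%), the dynein assembly factor Dnaaf2 (36.3%), Cfap410 (35.1%), Cfap36 (23.8%), Cfap20 (21.9%), Cfap300 (15.6%), Rsph3a (13.7%) and Rsph3b (11.3%). Rsph3a and Rsph3b are close copies, as are Dnah7a, Dnah7b and Dnah7c, and Dnaaf6 and Dnaaf6b, and reads could be split between copies, so their values are uncertain.

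The broad members were also seen in other classes. Cfap20, which lies at the inner junction of the doublet, was at 323 CPM in ciliated cells over all libraries, against 71.7 CPM in fibroblasts, 83.5 CPM in other epithelium and 91.3 CPM in pericytes. Cfap410, a protein of the ciliary base, was at 58.5 CPM in ciliated cells, against 39.1 CPM in mesothelium and 20.4 CPM in fibroblasts. Cfap97 was at 19.5 CPM in ciliated cells and at 25.5 CPM in mesothelium, with 15 UMIs behind the mesothelial value (95% Poisson interval 14.3 to 42.1 CPM). Dnah14, which is not among the 8 members of high fibroblast percent, was at 5.51 CPM in ciliated cells. In other epithelium it was at 10.4 CPM, from 222 UMIs (95% Poisson interval 9.09 to 11.9 CPM). The percents of the 8 members listed lay above the whole range of the ciliated markers, 0.219% to 8.47%. How much of any fibroblast level was free RNA was not tested.

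**Figure D2:**
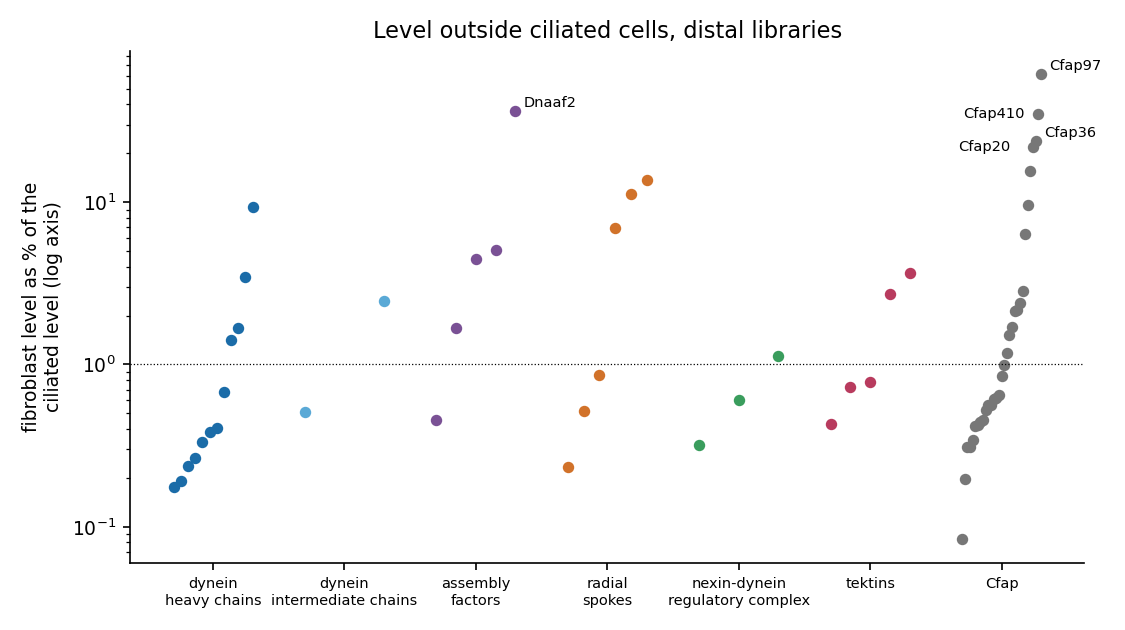
Level of each member in distal fibroblasts as a percent of its level in distal ciliated cells (log axis), by gene family; points are members of at least 5 CPM in distal ciliated cells, and the dotted line marks 1%. The 2 members at 0% are not drawn. Cfap97 (61.5%) and Dnaaf2 (36.3%) stand at the top.

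Within the ciliated class, the members' summed level also varied between clusters. It was 32277 ± 2399 CPM (SD, n = 3 distal libraries) in the cluster led by Galnt18, 23361 ± 491 CPM in the one led by AU040972 and 16593 ± 890 CPM in the one led by Wfdc12. It was 13209 ± 179 CPM in the cluster led by Fam183b, 10098 ± 3897 CPM in the one led by Sec14l3 and 8306 ± 677 CPM in the one led by S100g. These are descriptions, since the clusters were formed from the same cells. Members with a long gene span (over the members' median span of 41912.5 bases, 36 genes) and short-span members (36 genes) divided this sum differently. Over the same 3 distal libraries, long-span members averaged 3.73 times the level of short-span members in the Galnt18-led cluster and 2.21 times in the Wfdc12-led cluster. The ratio averaged 0.346 in the Fam183b-led and 0.274 in the S100g-led cluster.

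Depth, mitochondrial share and gene length moved with this split. The values that follow cover the cells of all libraries, and mitochondrial shares are means over cells. The Fam183b-led and S100g-led clusters had medians of 1077 and 1299 UMIs per cell and mitochondrial shares of 0.405% and 0.659%. Of their UMIs, 5.26% and 4.43% lay in genes spanning over 100000 bases. The Galnt18-led cluster had a median of 2016 UMIs, a mitochondrial share of 11.7% and 24.8% of its UMIs in such genes. The Wfdc12-led cluster had 4683 UMIs, 8.83% and 17.3%, and the Sec14l3-led cluster had 16937 UMIs, 5.35% and 15.5%. The part of these differences in the members' levels was not tested. The S100g-led cluster's median depth was 0.336 of that of its cells' own libraries, none of its top 10 genes was a ciliated marker, and it lost its ciliated name when doublets were kept or the mitochondrial maximum was 10%, which left proximal 2 with too few ciliated cells for the fits of the sections.

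**Figure D3:**
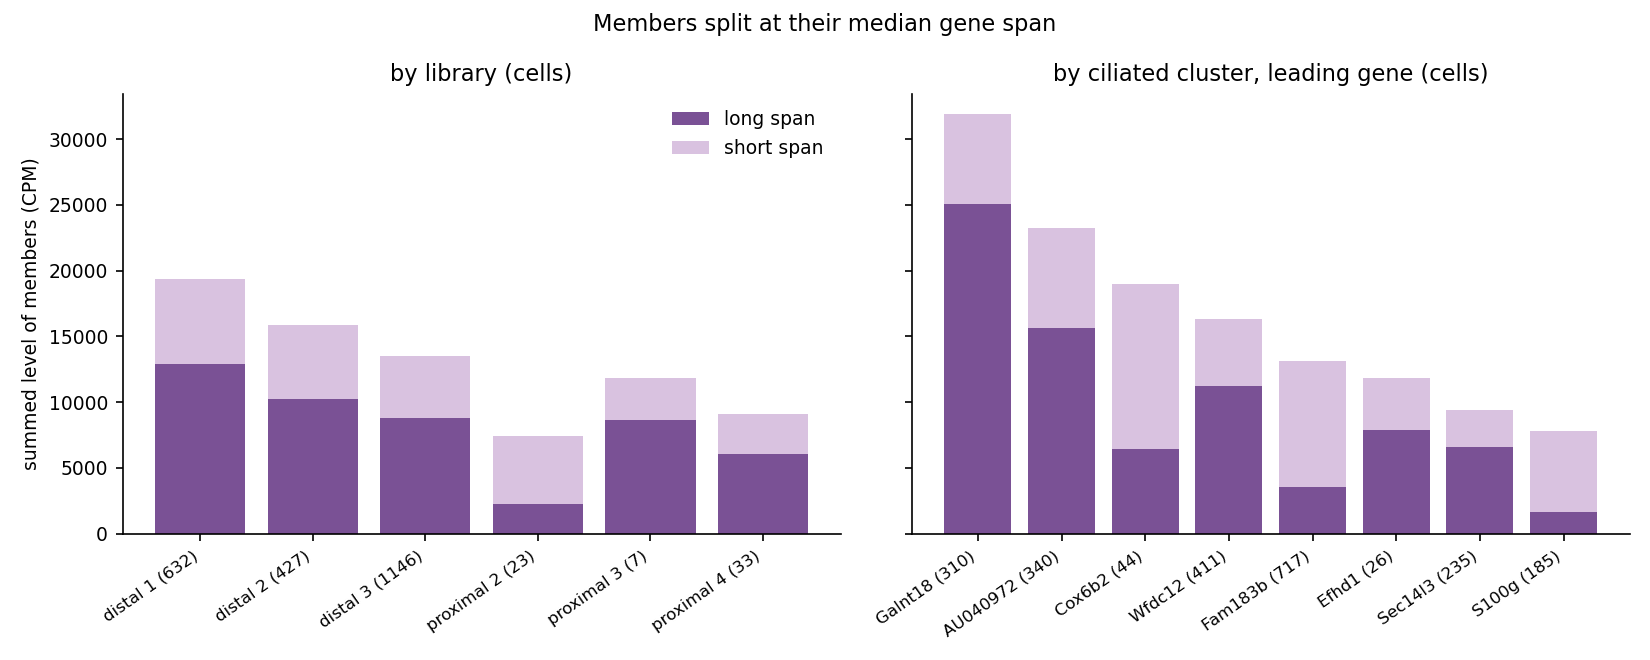
Summed level of the members in ciliated cells (CPM), stacked by gene span (long, over 41912.5 bases; short, the rest), by library on the left and by ciliated cluster on the right, with cell numbers in parentheses. Short-span members make up most of the bar in proximal 2 and in the clusters led by Cox6b2, Fam183b and S100g.

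The ciliated cells of the distal libraries were split by whether a cell held a Wfdc12 UMI. Such a UMI was found in 93, 47 and 49 distal ciliated cells (14.7%, 11.01% and 4.28% in distal 1, 2 and 3), against at most 0.385% of fibroblasts and at most 0.669% of other epithelial cells in the distal libraries. Median depth was 2194.5 to 2878 UMIs in those ciliated cells, 2630 to 4996 UMIs in fibroblasts and 4435 to 7722 UMIs in the other epithelial cells. The members' sum was 14035, 11256 and 10075 CPM in Wfdc12-detected cells and 20756, 16561 and 13741 CPM in not detected cells of distal 1, 2 and 3. It was lower in detected cells in every library, although the ranges of the groups overlapped. Cluster makeup moved with this split: a Wfdc12 UMI was found in 30.8% of the cells of the S100g-led cluster and 27.98% of the Wfdc12-led cluster, but in 0.558% of the Fam183b-led, 2.06% of the AU040972-led and 0% of the Galnt18-led cluster. Its part in the members' lower sum was not tested. Dynein heavy chains summed to 3709 ± 933 CPM in detected and 5715 ± 1290 CPM in not detected cells (SD, n = 3 libraries each), the nexin-dynein regulatory complex to 359 ± 81.0 CPM in detected and 606 ± 120 CPM in not detected cells, and radial spoke genes to 805 ± 128 CPM in detected and 1039 ± 218 CPM in not detected cells.

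In edgeR's quasi-likelihood test with library as a block, 27 of the 66 members tested passed an adjusted p of 0.05, 26 lower and 1 higher in detected cells, against 10.1% of all 11476 genes called in either direction, 5.95% called higher and 4.19% called lower. The members' median log2 fold change was -0.52, against -0.03 over all genes tested. Below 0 were 60 members and above 0 were 6, while 47.2% of all genes were above 0. In all 3 libraries 52 members were lower in detected cells (25.5% of all genes tested), among them all 26 called lower, and in 28 every detected value lay below every not detected one (12.1% of all genes). At this depth 6 members did not pass the filter on low counts: Dnah8, Dnah14, Dnah17, Dnaaf6, Rsph6a and Cfap97d1. Both groups came from the same libraries, and without the library term only Tekt5 was called (2.43% of all genes). DESeq2 called 12 members lower and 1 higher (5.12% of all genes).

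**Figure D4:**
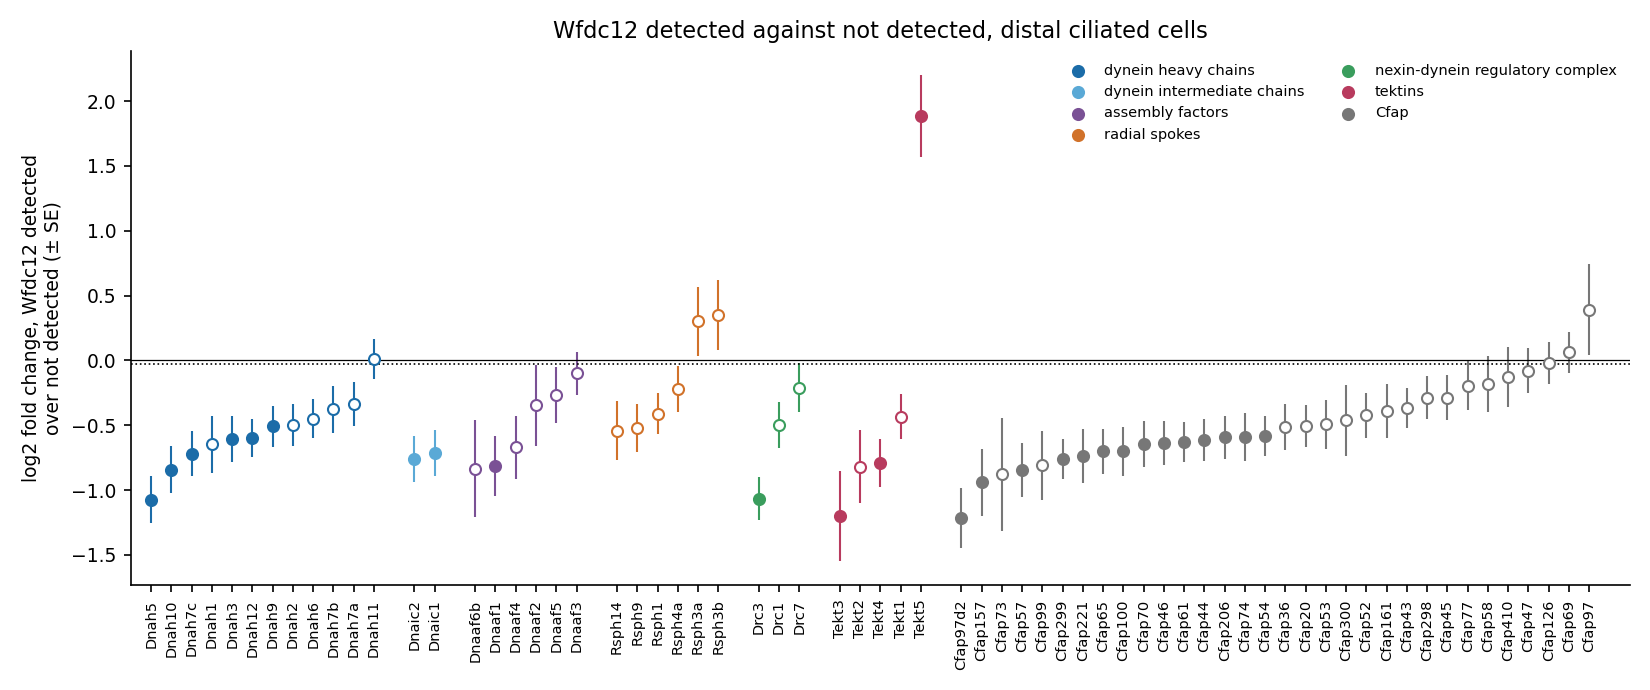
Log2 fold change (± standard error) of each tested member in Wfdc12-detected over not detected distal ciliated cells, grouped by family; filled points passed an adjusted p of 0.05 and open points did not, and the dotted line is the median of all genes tested (-0.03). Tekt5 is the 1 filled point above 0, and 26 filled points lie below 0.

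In the dynein arms, among 12 heavy chains tested, 6 were lower in detected cells and none was higher. Dnah5 was at 679, 279 and 509 CPM in detected and 1197, 987 and 888 CPM in not detected cells. Its groups did not overlap, and its log2 fold change was -1.07 (SE 0.18, adjusted p 0.000527). The inner arm chain Dnah10 was at 157, 85.3 and 148 CPM in detected and 276, 225 and 222 CPM in not detected cells, a log2 fold change of -0.84 (SE 0.18, adjusted p 0.00482). Dnah7c, Dnah3, Dnah12 and Dnah9 also passed, at log2 fold changes of -0.72 to -0.51. The outer arm chain Dnah11 was at 409, 403 and 302 CPM in detected and 469, 368 and 300 CPM in not detected cells. Its direction differed between libraries, and its log2 fold change was 0.01 (SE 0.16). Both outer arm intermediate chains were lower: Dnaic2 was at 106, 112 and 146 CPM in detected and 215, 184 and 227 CPM in not detected cells (log2 -0.76, SE 0.18, adjusted p 0.00761), and Dnaic1 fell by 0.71 on the log2 scale (SE 0.18, adjusted p 0.0133). Of 6 assembly factors tested, which fold dynein arms in the cytoplasm, only Dnaaf1 passed, at 52.9, 31.0 and 33.2 CPM in detected and 79.1, 67.7 and 67.2 CPM in not detected cells (log2 -0.81, SE 0.23, adjusted p 0.0295).

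In the spokes and links, none of 6 radial spoke genes passed. Rsph1, a spoke head protein, was at 415, 547 and 312 CPM in detected and 659, 619 and 436 CPM in not detected cells (log2 -0.41, SE 0.16, adjusted p 0.112), while Rsph3a and Rsph3b had positive log2 fold changes of 0.30 and 0.35 (SE 0.27 each). Drc3, of the nexin-dynein regulatory complex, had the lowest adjusted p of all members. It was at 196, 136 and 130 CPM in detected and 378, 348 and 270 CPM in not detected cells. Its groups did not overlap (log2 -1.07, SE 0.17, adjusted p 0.000273). Drc1 and Drc7, of the same complex, did not pass (log2 -0.50 and -0.21).

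The tektins divided. Tekt5, known mainly from sperm flagella, was at 52.9, 96.9 and 53.7 CPM in detected and 28.6, 17.4 and 9.74 CPM in not detected cells. It was higher in detected cells in all 3 libraries without overlap, with a log2 fold change of 1.89 (SE 0.32, adjusted p 0.00048), and was the 1 member that rose. Tekt3 was at 21.5, 11.6 and 7.67 CPM in detected and 41.9, 32.3 and 23.9 CPM in not detected cells, the opposite pattern (log2 -1.20, SE 0.35, adjusted p 0.0314). Tekt4 also fell (log2 -0.79, SE 0.18, adjusted p 0.0078), and Tekt1 and Tekt2 did not pass (log2 -0.44 and -0.82). Tekt5 was not among the calls when cells were thinned to 2000 UMIs or within the Wfdc12-led cluster.

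Among 32 Cfap genes tested, 14 were lower in detected cells and none was higher. Cfap97d2 was at 84.2, 31.0 and 28.1 CPM in detected and 142, 111 and 90.5 CPM in not detected cells, without overlap (log2 -1.22, SE 0.23, adjusted p 0.0018). Cfap157, known from sperm flagella and basal bodies, fell by 0.94 on the log2 scale (SE 0.26, adjusted p 0.0244). Cfap57, which links to an inner arm, fell by 0.84 (SE 0.21, adjusted p 0.0111). Cfap46, Cfap54, Cfap74 and Cfap221, of the central apparatus, were among those called lower, by 0.58 to 0.74. Cfap47 and Cfap69 did not pass (log2 -0.08 and 0.06, adjusted p 0.851 and 0.879). Cfap100 fell by 0.70, and Cfap44, of the tether complex that holds an inner arm, by 0.62, while its partner Cfap43 did not pass (log2 -0.37, adjusted p 0.148). The doublet lumen genes Cfap126, Cfap45, Cfap52, Cfap53 and Cfap161 did not pass, and their log2 fold changes were -0.02 to -0.49.

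**Figure D5:**
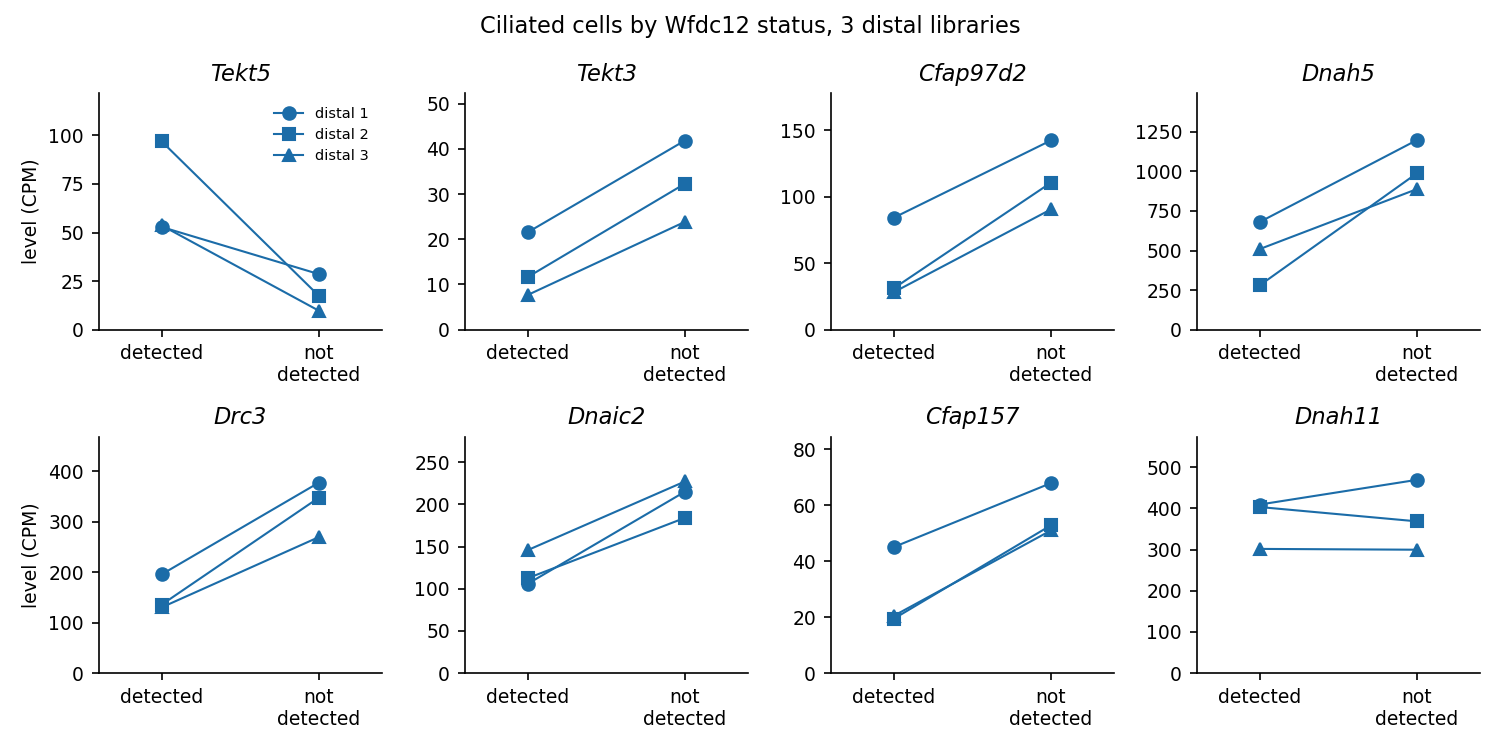
Level (CPM) of 8 members in Wfdc12-detected and not detected ciliated cells of distal 1, 2 and 3, each line joining the 2 values of 1 library. Tekt5 is higher in detected cells in all 3 libraries; Tekt3, Cfap97d2, Dnah5, Drc3, Dnaic2 and Cfap157 are lower in all 3, and Dnah11 has no common direction.

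In a list of other axoneme genes, 9 of 40 tested were lower and none higher, with a median log2 fold change of -0.39. Those lower included the central apparatus genes Hydin (-0.70) and Spag16, and also Spef2 (-0.56). Among intraflagellar transport genes 2 of 27 were lower (Ift27 and Ift88), and among multiciliogenesis regulators 2 of 12 (Myb and Deup1), with Foxj1 at a log2 fold change of -0.04. The ciliated marker list had 3 of 16 lower (Tmem212, Odf3b and Tubb4b), and no gene of these 4 lists was higher. Over all genes tested, 4.19% were called lower and 5.95% higher.

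Depth and secretory markers moved with Wfdc12 status. Detected cells had medians of 4733, 3521 and 4698 UMIs, and not detected cells 2667, 2226 and 2088 UMIs. Of 8 secretory markers listed, 6 were tested and 4 were higher in detected cells (Ovgp1, Pax8, Sox17 and Upk1a). The whole list summed to 7725, 8336 and 8278 CPM in detected and 2739, 5425 and 4428 CPM in not detected cells, without overlap. Ovgp1, the oviductal glycoprotein, had a log2 fold change of 1.16 (SE 0.17, adjusted p 0.000121). With each cell thinned to 2000 UMIs, 10 of 64 members were lower and none higher (5.44% of all genes called). Of those 64, 59 were below 0, and their median log2 fold change was -0.69, against -0.04 over all genes. Within the Wfdc12-led cluster 5 of 64 were lower and none higher (2.68% of all genes called): Cfap299, Dnah10, Dnah12, Dnah5 and Drc3. There 58 were below 0, with a median of -0.38, against -0.01 over all genes. The part of secretory RNA in the members' lower CPM was not tested. Leaving out distal 1, 2 or 3 gave 15, 19 or 13 members called (7.33%, 8.24% and 7.7% of all genes), and leaving out the Sec14l3-led cluster, of whose 235 cells 195 came from distal 3, gave 41 (15.7%).

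Some members hold the letters of an X-box before their start site, the motif bound by RFX transcription factors, which are known as regulators of ciliary genes. RefSeq promoter windows (build GRCm38.p6, not the mm39 of the counts) were at hand for 61 of the 72 members. The 250 bases before the start site were searched on both strands for GTNNCCNNNGNAAC and GTNNCCNNGNAAC, which differ in 1 base of spacing. One or the other was present in 16 of 61 members, or 26.2%, against 3.56% of 27025 genes with a window. The shorter GTTGCC, which can lie within either, was present in 19 of 61 members and in 11.8% of genes. Either match was present in 6 of 20 members called lower that had a window (Dnaic1, Dnaic2, Dnah9, Tekt4, Cfap44 and Cfap206) and in 8 of 34 tested but not called (Cfap45, Cfap58, Cfap99, Cfap298, Dnaaf2, Dnaaf5, Rsph14 and Tekt2). Among the members not tested for Wfdc12 status it was present in Dnah17 and Dnaaf6, which had few or no UMIs in ciliated cells. A match describes letters only, and no match says only that they are not in this window. The following stretches run 5' to 3' on the gene's own strand with the match, read on either strand, in capitals. They show 6 members that were lower in detected cells and, last, a member nearly absent from ciliated cells.
Dnaic1: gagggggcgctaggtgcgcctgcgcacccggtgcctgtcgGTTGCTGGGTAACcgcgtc
Dnaic2: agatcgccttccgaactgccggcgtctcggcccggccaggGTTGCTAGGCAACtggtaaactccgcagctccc
Dnah9: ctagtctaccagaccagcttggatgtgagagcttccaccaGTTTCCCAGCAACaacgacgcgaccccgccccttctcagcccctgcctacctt
Tekt4: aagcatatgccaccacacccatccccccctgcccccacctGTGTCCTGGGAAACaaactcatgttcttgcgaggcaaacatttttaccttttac
Cfap44: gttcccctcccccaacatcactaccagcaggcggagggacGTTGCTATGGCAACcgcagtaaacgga
Cfap206: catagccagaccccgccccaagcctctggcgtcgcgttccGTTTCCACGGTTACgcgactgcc
Dnah17: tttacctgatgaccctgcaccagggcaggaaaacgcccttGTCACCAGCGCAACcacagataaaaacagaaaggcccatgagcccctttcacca
These lie at chr4:41569735-41569793 on the plus strand (Dnaic1), chr11:114727346-114727418 plus (Dnaic2), chr11:66168581-66168673 minus (Dnah9), chr17:25471390-25471483 plus (Tekt4), chr16:44394732-44394798 plus (Cfap44), chr4:34730207-34730269 minus (Cfap206) and chr11:118129325-118129418 minus (Dnah17), all upstream of the annotated start. In Dnaic1, Cfap44 and Cfap206 the match ended 6, 13 and 9 bases before the start site, and in Tekt4 and Dnah17 it ended 146 and 145 bases before it.

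Distal and proximal ciliated cells were compared over distal 1, 2 and 3 and proximal 2 and 4, the libraries with at least 10 ciliated cells. None of the 67 members tested (all but Dnah17, Dnah8, Dnaaf6, Rsph6a and Cfap97d1) passed an adjusted p of 0.05 in edgeR's quasi-likelihood test, against 0.14% of all genes called. At an unadjusted p under 0.05, 25 members were higher in distal cells and none lower, against 15.5% of all genes in either direction. DESeq2 called 9 members higher in distal cells and none lower (3.76% of all genes called): Cfap299, Cfap44, Cfap54, Cfap61, Dnah10, Dnah12, Dnaic1, Dnaic2 and Drc3. The members' median log2 fold change was 1.08, against 0.31 over all genes tested. Above 0 were 63 of 67 members and 62.1% of all genes. With RLE size factors the medians were 0.96 and 0.19. With no filter on low counts they were 1.32 over 70 members and 1.37 over all genes, and 9 members were called (2.31% of all genes). With 23 and 33 ciliated cells in the 2 proximal libraries, a missing call does not show equal levels.

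The member nearest to a call was an inner arm gene. Dnah10 was at 251, 206 and 217 CPM in the distal and 57.7 and 64.6 CPM in the proximal 2 and 4 ciliated cells, where it had 4 and 7 UMIs. Its groups did not overlap, and proximal 3, with 7 cells and outside the fit, was at 173 CPM. Its log2 fold change was 2.02 (SE 0.48), with the lowest adjusted p of any member, 0.108. Dnaic1 was at 249.8, 194 and 169.5 CPM in distal and 43.3 and 64.6 CPM in proximal ciliated cells (log2 2.03, SE 0.51, adjusted p 0.117). Cfap97d2 was at 130, 99.6 and 86.2 CPM in distal and 28.8 and 0 CPM in proximal ciliated cells, where it had 2 UMIs in all. Its pooled ratio of distal over proximal was 8.86 (exact 95% interval 2.44 to 73.2, counting error only). Tekt3 was at 37.7, 29.5 and 22.7 CPM in distal ciliated cells and had no UMI in the proximal ones. Its pooled distal level was 1.64 times a floor of 3 counts over proximal 2 and 4 together, which covers counting error only. With 0 and 2 proximal UMIs, Tekt3 and Cfap97d2 reached the test through their distal values. Next in size, Rsph14 had a log2 fold change of 2.07 (SE 0.60), and Dnaaf4, with 3 proximal UMIs, a pooled ratio of 3.98 (exact 95% interval 1.36 to 19.3). The 4 smallest belonged to Dnah14 (-1.05, SE 1.37), Tekt2 (-0.25, SE 0.57), Tekt1 (-0.21, SE 0.58) and Cfap298 (-0.12, SE 0.61). None of these 4 kept its sign, since each was above 0 under some alternative, up to 6.57, 1.62, 1.48 and 2.19 in the same order. The number of members below 0 was 2 without proximal 2 and 8 without proximal 4.

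Most ciliated cells of the sections lay in different clusters. Proximal 2 had 21 of its 23 ciliated cells in the S100g-led cluster, proximal 4 had 19 of 33 and proximal 3 all 7 in a cluster led by Efhd1 that held no distal cell. The Fam183b-led, AU040972-led and Galnt18-led clusters together held 1 proximal cell. The long-span members were 1.99, 1.82 and 1.85 times the short-span members in level in distal 1, 2 and 3, against 0.441 times in proximal 2 and 2.02 times in proximal 4. Genes spanning over 100000 bases took 14.7% to 16.6% of the ciliated cells' UMIs in the distal libraries, against 5.73% in proximal 2 and 14.6% in proximal 4. Across the 67 members the log2 fold change had a Spearman correlation of 0.41 with gene span, against 0.18 across 12749 genes with a known span. Without proximal 2 it was -0.11 across the members, and without proximal 4 it was 0.63. These are descriptions over genes that share the same libraries. The mean mitochondrial share per ciliated cell was 4.91% to 5.42% in the distal libraries, against 0.857% in proximal 2 and 4.84% in proximal 4. The members' median log2 fold change was 1.31 without proximal 2 and 1.62 without proximal 4, against 0.47 and 1.10 over all genes. Without the S100g-led cluster it was 1.34, against 0.46 over all genes, and no member was called. The part of cluster makeup in the section difference was not tested.

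In other epithelial cells, 29 members were tested and 2 were higher in distal cells, Rsph1 and Cfap410, with none lower; 5.78% of all genes were called in either direction and 1.74% higher. Rsph1 was at 24.4, 23.4 and 20.8 CPM in distal and 4.55, 4.41 and 4.82 CPM in proximal cells (log2 2.43, SE 0.47, adjusted p 0.0163). Cfap410 was at 24.1, 25.5 and 24.5 CPM in distal and 6.82, 4.41 and 9.64 CPM in proximal cells (log2 1.83, SE 0.43, adjusted p 0.0347). Neither gene's groups overlapped. These proximal values stand for few UMIs each, from depths of 439743, 226562 and 622320 UMIs. Both genes met the filter's minimum total of 15 counts through their distal values. DESeq2 called 6 members higher and Tekt4 lower (14.4% of all genes). Both edgeR calls were lost on leaving out any library other than proximal 2. Without proximal 2, 8 members were called, and with a term for the group 2 libraries, which the labels number alike in both sections, 8 were called as well, all higher in distal cells (24.9% and 15.3% of all genes). These added Cfap45, Cfap69, Cfap126, Cfap298 and Cfap36 in both fits. Other epithelium as tested left out epithelial clusters that were not classed, with 583, 314 and 506 distal and 142, 7 and 38 proximal cells. With these clusters added, only Rsph1 was called (3.33% of all genes), and Cfap410 was not.

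Ciliated markers outside the ciliated class moved with the section. The 16 ciliated markers summed to 433, 575 and 420 CPM in distal and 282, 199 and 235 CPM in proximal other epithelial cells, and ciliated cells were 632 of 6652, 427 of 4115 and 1146 of 5417 cells in the distal and 23 of 824, 7 of 325 and 33 of 1133 in the proximal libraries. The part of free ciliated RNA in the Rsph1 and Cfap410 values was not tested. In fibroblasts none of the 30 members tested was called by edgeR or by DESeq2, against 2.93% of all genes in edgeR and 3.79% in DESeq2. An unadjusted p under 0.05 was found for 3 of them, against 16.4% of all genes. Rsph1 had the largest fitted log2 fold change there, which depends on the prior count, at 5.71, 2.46 and 6.41 CPM in distal and 0, 0 and 1.38 CPM in proximal fibroblasts (log2 3.86, SE 1.10, adjusted p 0.0908). It was called, with Cfap161, when the group 2 term was added (10.3% of all genes). Cfap161 had no UMI in proximal fibroblasts, so both genes reached that test through their distal values. Without proximal 2, Cfap298 and Cfap36 were called higher and Dnah1 lower (13.1% of all genes). Cfap20 was at 68.1, 69.0 and 78.6 CPM in distal and 72.8, 83.6 and 91.2 CPM in proximal fibroblasts, and its log2 fold change was -0.05 (SE 0.24).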

How the data were processed

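Cells of mouse uterine tube were profiled with 10x Genomics 3' v2 chemistry, per the labels. The authors deposited raw UMI counts per gene and cell barcode. Cell Ranger 6.1.2 and mm39 are named per the submitters' processing notes, while the file header names Cell Ranger 7.0.0. Libraries held 327 to 7371 barcodes and 426707 to 32488145 UMIs.

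Barcodes were kept from 500 UMIs and 250 genes upward, where mitochondrial UMIs did not exceed 20%. The doublets removed scored highest against simulated doublets, at 0.8% per 1000 cells. Leiden clusters (leidenalg 0.10.2, resolution 1) were made without the members, and classes were named from marker lists. A cluster led by the ciliated list was left out of the ciliated class under a joint condition. Its depth had to be under 1/3 of its libraries' median, with no ciliated marker among its top 10 genes. The S100g-led cluster met the marker part and lay just above the depth limit. Counts were summed per library and class (at least 10 cells) and tested with edgeR 4.0.16 in R 4.3.3 (quasi-likelihood, TMM, filterByExpr, Benjamini-Hochberg adjustment over all genes tested, 0.05), with DESeq2 1.42.0 as an alternative. The scripts were tested on simulated data. Poisson and binomial intervals and the floor of 3 counts cover counting error only.

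Named members were the 3 highest of each family, the members called (with more than 12, the 6 largest each way), the 4 largest and smallest fold changes of each comparison, and the extremes of the fibroblast ratio. Others named beside them were chosen after their values were seen. Members and lists were chosen with earlier results of these data known. Titles and descriptions number the libraries alike except for distal 3, which its description numbers 4, so that only number 2 is shared by both sections in both. Deviations of distal 2 and proximal 2 from their section means correlated at 0.64 in other epithelium and 0.51 in fibroblasts. Other pairs ran from -0.59 to 0.48 in other epithelium and from -0.36 to 0.25 in fibroblasts. Deviations within a section sum to 0, so these values are tied to each other.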

Additional observations from a re-analysis of the deposited data

How the results depend on the processing

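Members called were recounted under each alternative. In distal over proximal ciliated cells (0 called), DESeq2 gave 9 (3.76% of all genes called), no filter on low counts 9 (2.31%), libraries of at least 5 ciliated cells 1 (2.77%) and no removal of doublets 4 (2.16%). In that last setting Cfap298 reversed to a log2 fold change of 1.86. That fit had 4 sums against 5, without proximal 2, which held 39 of the 52 Cfap298 UMIs of proximal 2 and 4, so doublets and that library's absence cannot be told apart. Without proximal 2 and with doublets removed Cfap298 was at 1.58. Both replicate block fits gave 0, and leaving out 1 library gave 0 each time. For Wfdc12 status (27 called), DESeq2 gave 13 (5.12% of all genes called), no filter 40 (5.13%), no replicate block 1 (2.43%), thinning to 2000 UMIs 10 (5.44%), at least 3 Wfdc12 UMIs 11 (8.47%) and at most 10% mitochondrial UMIs 16 (9.58%). Leaving out 1 library gave 13 to 19. In other epithelium (2 called), DESeq2 gave 7 (14.4%), no filter 8 (5.72%), thinning to the proximal depth 0 of 4 tested (2.36%), and leaving out 1 library 0 to 8. There the replicate block by description number gave 1 (3.23%) and the term for group 2 gave 8 (15.3%). In fibroblasts (0 called), no filter gave 5 (4.82%), leaving out 1 library 0 to 3, and the replicate block term for group 2 gave 2 (10.3%). Alternatives chosen after seeing the data gave 4 (2.94%) in the first comparison and 41 (15.7%) in the second without the cluster of highest depth, 5 (2.68%) within the Wfdc12-led cluster, and 1 (3.33%) over all epithelial clusters outside the ciliated class. For these other changes the cause was not tested. A fit of Wfdc12 status with proximal libraries was not run, since none had 5 cells of each status. The proximal ciliated values rest on 11557 to 108382 UMIs.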
